A study of Mus musculus with 23 samples.

Results

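The proteasome was followed in transferred OT-I and OT-II T cells through every gene whose symbol begins Psma, Psmb, Psmc, Psmd or Psme and ends in a number. The rule found 43 of the 21900 protein-coding genes in the table. They are 8 alpha and 4 non-catalytic beta genes of the core, 3 constitutive catalytic genes (Psmb5, Psmb6, Psmb7) and 3 immune catalytic genes (Psmb8, Psmb9, Psmb10). The others are the thymic catalytic gene Psmb11, 6 ATPases and 14 non-ATPases classed with the regulatory particle, and 4 activators. Of the non-ATPases, Psmd5, Psmd9 and Psmd10 are chaperones that assemble the base of that particle. They were counted in its class and in its medians.

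The CD8 cells, OT-I, and the CD4 cells, OT-II, each carry a transgenic receptor for ovalbumin (OVA). The labels call the OT-II cells OT-i in one field, CD4 T cells in another and OT2 in the title. Both cell types were transferred into C57BL/6 mice, which on day 1 after transfer were given A8B1-OVA at 1 ug, OVA alone in a molar-equivalent amount, OVA alone at a higher dose, or only saline. The cells were sorted from pooled spleens and lymph nodes on day 5, and RNA from 3 mice was combined in each of the 23 libraries. Groups had 3 libraries each, save that OT-II cells given higher-dose OVA had 2, numbered 2 and 3. The study's title concerns antigen targeted to erythrocytes and anergy. What A8B1 is, and how large the higher dose was, the sources used here do not say.

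The proteasome degrades proteins that carry ubiquitin chains. Its barrel-shaped core holds the proteolytic sites between rings of alpha subunits, and the regulatory particle caps the barrel, recognises the substrate and unfolds it with a ring of ATPases. Lymphocytes replace the constitutive catalytic subunits in part with the immune ones: Psmb8 takes the place of Psmb5, Psmb9 that of Psmb6, and Psmb10 that of Psmb7. The immune forms are induced by interferon gamma and favour peptides that fit MHC class I. Psme1 and Psme2 form an interferon-inducible activator of the core, Psme3 forms a related nuclear activator, and Psme4 is a large single-chain activator.

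Depth lay between 26.6 M and 73.5 M counts a library, and the 43 genes together took 0.762% to 1.02% of them. In the OT-I libraries the summed CD8 markers reached 2390 to 3900 CPM (counts relative to depth) and Cd4 was between 0.326 and 164 CPM, the highest being OT-I with higher-dose OVA replicate 1. In the OT-II libraries Cd4 was between 554 and 704 CPM and the CD8 sum between 27 and 60.1 CPM. The summed myeloid markers (14 genes) stood apart in OT-I with molar-equivalent OVA replicate 2 at 951 CPM, in OT-II saline replicate 1 at 626 CPM and in OT-I saline replicate 1 at 374 CPM. These libraries, with OT-I higher-dose OVA replicate 1 and OT-II molar-equivalent OVA replicate 3, are the 5 raised-marker libraries left out in an alternative fit. The summed erythroid markers (6 genes) were 1120, 203 and 713 CPM in OT-II saline replicates 1 to 3, and 392, 291 and 187 CPM in OT-II A8B1-OVA. OT-II saline replicate 3 was not among the 5 left out. Fewer cells of a type and less RNA per cell cannot be told apart in such bulk libraries.

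Upstream sequence is shown for the genes called with A8B1-OVA that had an entry in the RefSeq promoter table (GRCm38.p6) reaching beyond the annotated gene, so that the letters stand beside the values that follow. Each runs 5′ to 3′ on the strand of the gene and ends at or before the annotated start. Capitals mark a match to a CCAAT box on either strand, which was found in the Psme3 window alone among these 4.
Psme3, chr11:101315963-101316212, strand plus: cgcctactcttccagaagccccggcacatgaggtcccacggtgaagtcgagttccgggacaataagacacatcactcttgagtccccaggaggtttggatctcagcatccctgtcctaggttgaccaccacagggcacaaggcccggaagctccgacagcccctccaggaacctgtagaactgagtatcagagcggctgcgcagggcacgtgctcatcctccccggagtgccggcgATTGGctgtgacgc
Psmd2, chr16:20651402-20651651, strand plus: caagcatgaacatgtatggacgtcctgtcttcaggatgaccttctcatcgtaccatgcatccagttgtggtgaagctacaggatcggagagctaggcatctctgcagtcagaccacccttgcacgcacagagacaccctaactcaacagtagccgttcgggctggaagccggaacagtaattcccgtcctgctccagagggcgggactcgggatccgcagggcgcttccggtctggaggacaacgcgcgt
Psma4, chr9:54950609-54950789, strand plus: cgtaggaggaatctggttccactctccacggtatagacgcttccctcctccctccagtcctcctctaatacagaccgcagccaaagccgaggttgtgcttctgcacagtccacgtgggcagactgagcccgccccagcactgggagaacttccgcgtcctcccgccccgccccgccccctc
Psmb10, chr8:105938445-105938642, strand minus: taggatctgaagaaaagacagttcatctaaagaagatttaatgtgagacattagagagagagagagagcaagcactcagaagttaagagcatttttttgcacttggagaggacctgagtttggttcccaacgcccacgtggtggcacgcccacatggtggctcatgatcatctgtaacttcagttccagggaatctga

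The 250 bases before the start were searched on both strands for 4 motifs in the 39 entries of 36 matched members and in all 32851 entries. The CCAAT box was in 35.9% of the members' entries and 33.8% of all entries. TGACNNNGC, the core of the antioxidant response element, was in 12.8% of the members' entries and 10.2% of all. GAAANNGAA, the core of the interferon-stimulated response element, was in 7.69% and 7.13%. TTCNNNGAA, the gamma-activated site, was in 2.56% of the members' entries, which is Psmb8 alone, and in 7.02% of all. Those shares lay close to the background for 3 of the motifs, and a match describes letters, not a bound site.

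Per kilobase of the longest coding transcript, the immune subunits and the interferon-inducible activator were among the most abundant members. In OT-I cells Psme2 came first after A8B1-OVA at 569 ± 134 CPM per kilobase and in saline at 580 ± 50.1 (SD, n = 3 each). In OT-II cells Psmb8 came first after A8B1-OVA at 464 ± 61.4 CPM per kilobase and in saline at 445 ± 45.5 (SD, n = 3 each). Psme3 ranked 22 in OT-I saline cells at 102 ± 7.81 and 30 in OT-II saline cells at 69.1 ± 2.45 CPM per kilobase (SD, n = 3 each). Psme4 was near the bottom, with 5.93 ± 1.03 in OT-I saline cells. Psmb11, the thymic cortex subunit, had 12 to 77 counts in a library, and Psma8, the testis alpha subunit, had 0 to 13 counts and was at 0 in 9 libraries.

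The comparison of A8B1-OVA with saline asks how proteasome transcripts stood after the targeted antigen. In OT-II cells the activator Psme3 and the regulatory particle scaffolds Psmd1 and Psmd2 were higher after A8B1-OVA, and the immune catalytic subunit Psmb10 was lower. In OT-I cells the core subunits Psma4 and Psmb7 were called higher, and no member was called lower. A gene was called at an adjusted p under 0.05 in edgeR's quasi-likelihood test with Benjamini-Hochberg adjustment over all genes tested.

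**Figure D1:**
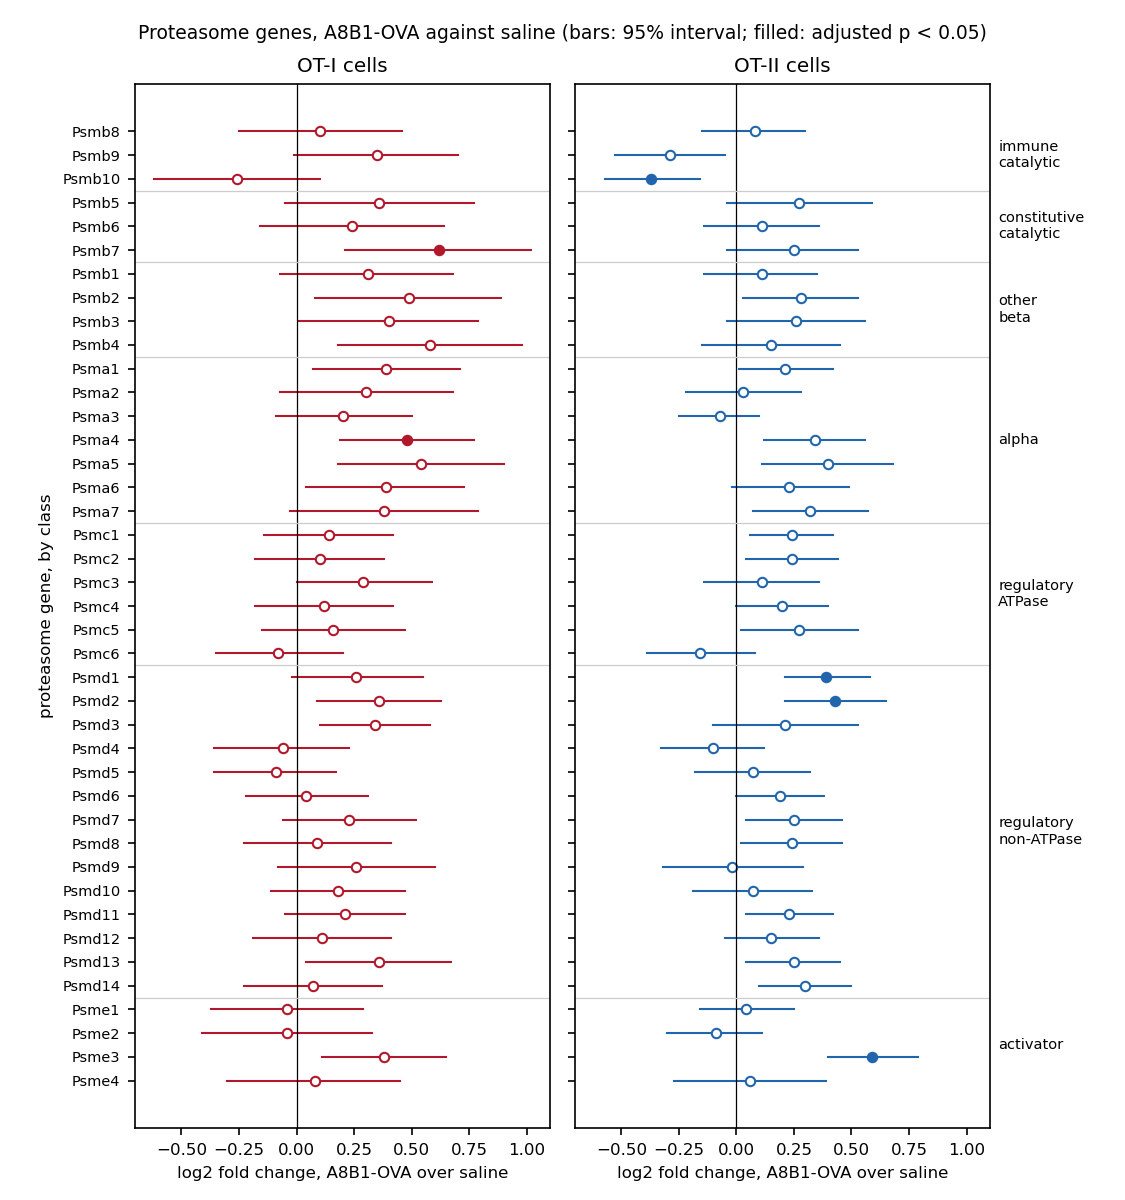
Log2 fold change of each proteasome gene (rows, grouped by class) after A8B1-OVA over saline in OT-I (left) and OT-II cells (right). Points are edgeR estimates, bars their 95% intervals, and filled points passed an adjusted p of 0.05; Psma8 and Psmb11, with few counts, are left out. Psme3 lies farthest right in OT-II cells at 0.59, and Psmb10 lies left of 0 in both panels.

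Psme3 (chr11:101316213-101323537, GRCm38, plus strand) had 262, 293 and 271 CPM in OT-II cells after A8B1-OVA, against 191, 179 and 182 CPM in OT-II saline cells. The lowest A8B1-OVA library lay well above the highest saline library. The log2 fold change was 0.59 ± 0.09 (SE), with a 95% interval of 0.40 to 0.79 and an edgeR adjusted p of 0.00229. It was called in 6 of 6 fits that left out 1 library, the highest adjusted p being 0.0148 by edgeR. In the OT-II libraries with molar-equivalent OVA Psme3 had 190, 216 and 186 CPM, below every A8B1-OVA library. A8B1-OVA over molar-equivalent OVA gave a log2 fold change of 0.49 ± 0.09 (edgeR adjusted p 0.0081). With higher-dose OVA the 2 libraries had 196 and 215 CPM, and the log2 fold change of A8B1-OVA over them was 0.44 ± 0.10 (SE), which did not pass (edgeR adjusted p 0.0638).

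In OT-I cells Psme3 had 356, 396 and 322 CPM after A8B1-OVA, against 262, 260 and 297 CPM in saline cells. These groups did not overlap either, but the log2 fold change of 0.38 ± 0.12 (SE; 95% interval 0.11 to 0.65) did not pass in edgeR (adjusted p 0.0663). The OT-I response minus the OT-II response was -0.19 (95% interval -0.49 to 0.11; interaction contrast, edgeR adjusted p 0.777). A difference between the responses of the cell types was thus not called, and the interval holds differences of either sign. No annotated transcript of another gene shares a 31-base word with the coding transcripts of Psme3.

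The other activators gave small values. Psme1 had 441, 498 and 426 CPM in OT-II cells after A8B1-OVA, against 471, 414 and 453 CPM in OT-II saline cells. The OT-II ranges overlapped. In OT-I cells the log2 fold changes were -0.04 (95% interval -0.37 to 0.29) for Psme1 and -0.04 (-0.41 to 0.33) for Psme2. The log2 ratio of Psme1 to Psme3 was 0.72 ± 0.06 in OT-II cells after A8B1-OVA and 1.28 ± 0.06 in OT-II saline cells (SD, n = 3 each). The same ratio was 0.57 ± 0.23 in OT-I cells after A8B1-OVA and 1.01 ± 0.18 in OT-I saline cells (SD, n = 3 each). In OT-II cells the ranges were 0.66 to 0.76 after A8B1-OVA and 1.21 to 1.31 in saline, which do not overlap; in OT-I cells, 0.44 to 0.84 and 0.81 to 1.16, which do.

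**Figure D2:**
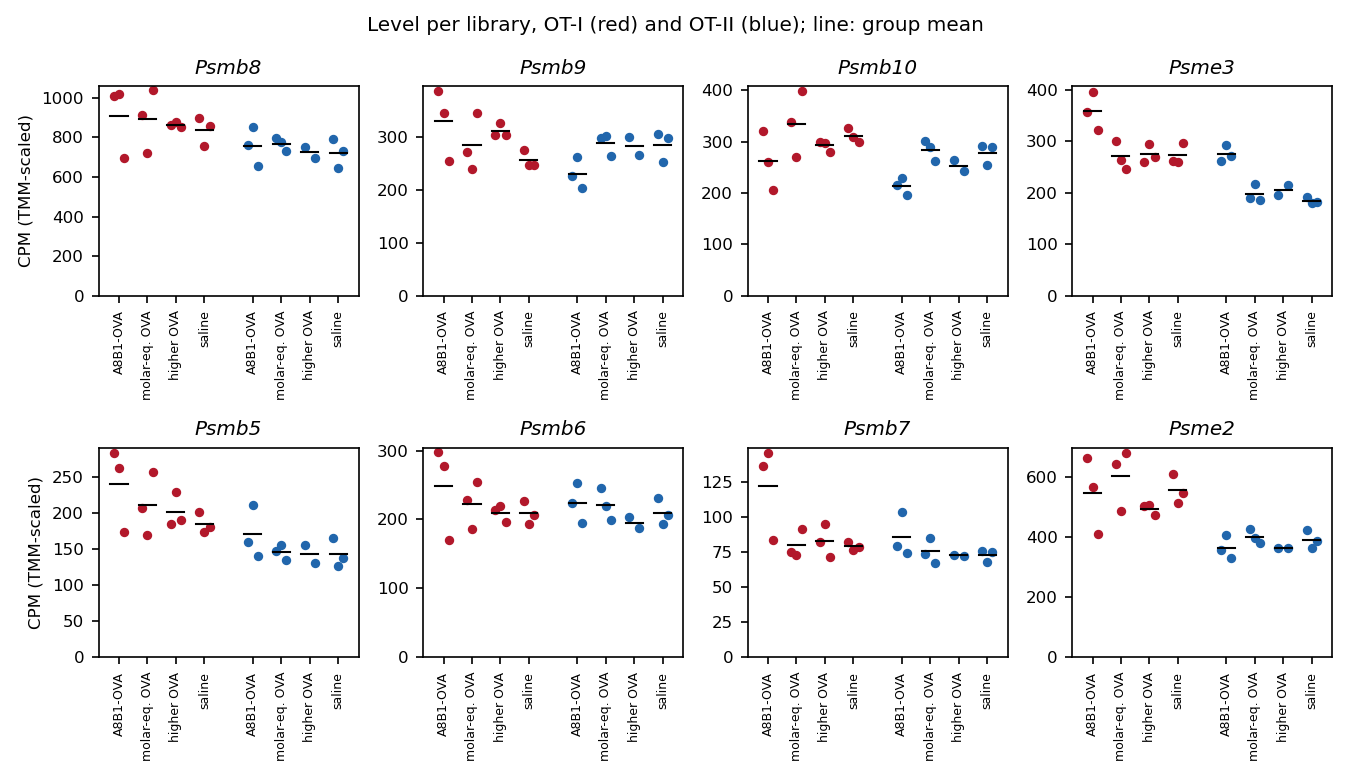
CPM (y axis, from 0) of the 3 immune catalytic genes, their 3 constitutive counterparts, Psme3 and Psme2 in each library, by treatment, for OT-I (red) and OT-II cells (blue); lines are group means. Psme3 after A8B1-OVA spans 262 to 293 CPM in OT-II cells, where the saline libraries span 179 to 191, and OT-I replicate 3 after A8B1-OVA lies under its fellow replicates for each catalytic gene.

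Of the 3 immune subunits, 1 was called, in OT-II cells alone by this test. The difference between the responses of the cell types was not called for any of them. Psmb10 (chr8:105935735-105938444, minus strand) had 216, 230 and 196 CPM in OT-II cells after A8B1-OVA, against 292, 254 and 290 CPM in OT-II saline cells. All A8B1-OVA libraries lay below all saline libraries, with a log2 fold change of -0.37 ± 0.09 (SE; 95% interval -0.57 to -0.16; edgeR adjusted p 0.0375). The call was kept in 2 of the 6 fits that left out 1 library, and the highest edgeR adjusted p among them, 0.133, came without saline replicate 3. It was also lost without the 5 raised-marker libraries (log2 fold change -0.33, edgeR adjusted p 0.117) and in a fit of only the groups compared (0.0884). Psmb10 was also lower than with molar-equivalent OVA, whose libraries had 301, 289 and 262 CPM (log2 fold change -0.40 ± 0.09, edgeR adjusted p 0.0279). That call was kept in 2 of 6 fits that left out 1 library and lost in a fit of only the groups compared (edgeR adjusted p 0.0568). In OT-I cells Psmb10 had 321, 261 and 205 CPM after A8B1-OVA, against 326, 308 and 300 CPM in saline cells. Those ranges overlapped, and the log2 fold change of -0.26 (95% interval -0.62 to 0.10) did not pass.

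Psmb9 (chr17:34181987-34187764, minus strand) gave values of opposite sign in the cell types. In OT-II cells it had 226, 261 and 203 CPM after A8B1-OVA, against 305, 252 and 297 CPM in saline cells. The log2 fold change of -0.29 (95% interval -0.53 to -0.05) did not pass in edgeR (adjusted p 0.151), and the groups overlapped. In OT-I cells it had 386, 345 and 254 CPM after A8B1-OVA, against 275, 246 and 247 CPM in saline cells, a log2 fold change of 0.35 (95% interval -0.01 to 0.70; edgeR adjusted p 0.197). The difference between the responses was 0.66 (95% interval 0.23 to 1.09), with an unadjusted p of 0.00431 and an adjusted p of 0.22 in edgeR's interaction contrast. Psmb9 lies beside Tap1, with which it shares 10.8% of the 31-base words of its coding transcripts.

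Psmb8 (chr17:34197721-34201454, plus strand), the most abundant immune subunit per kilobase, had 760, 853 and 653 CPM in OT-II cells after A8B1-OVA, against 793, 646 and 732 CPM in saline cells. In OT-I cells it had 1010, 1020 and 694 CPM after A8B1-OVA, against 900, 757 and 860 CPM in saline cells. The groups overlapped in both cell types. The log2 fold changes were 0.08 in OT-II cells (95% interval -0.15 to 0.30) and 0.10 in OT-I cells (-0.25 to 0.46), and neither passed.

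Setting each immune subunit against the constitutive subunit it replaces compares genes within a library. The log2 ratio of Psmb10 to Psmb7 was 1.22, 0.84 and 1.29 in OT-I cells after A8B1-OVA, against 1.99, 2.01 and 1.92 in OT-I saline cells. In OT-II cells it was 1.45, 1.14 and 1.40 after A8B1-OVA, against 1.94, 1.89 and 1.95 in saline cells. In each cell type every A8B1-OVA library lay below every saline library, and also below every OVA library, whose lowest values were 1.65 in OT-I and 1.74 in OT-II cells. The mean difference, A8B1-OVA minus saline, was -0.86 in OT-I cells and -0.60 in OT-II cells. OT-I replicate 3, which stands apart in its core subunits, did not stand apart here.

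The log2 ratio of Psmb8 to Psmb5 averaged 1.93 ± 0.09 in OT-I cells after A8B1-OVA and 2.18 ± 0.06 in OT-I saline cells. It averaged 2.16 ± 0.12 in OT-II cells after A8B1-OVA and 2.34 ± 0.08 in OT-II saline cells (SD, n = 3 each). The log2 ratio of Psmb9 to Psmb6 was 0.01, 0.04 and 0.06 in OT-II cells after A8B1-OVA, against 0.40, 0.38 and 0.53 in saline cells. In OT-I cells it was 0.37, 0.31 and 0.58 after A8B1-OVA, against 0.28, 0.35 and 0.26 in saline cells, and the groups overlapped. For 5 of the 6 pair comparisons the exact two-sided permutation p was 0.1, the smallest that 3 against 3 allows, and for Psmb9 to Psmb6 in OT-I cells it was 0.2. Adjusted over the 6 comparisons these were 0.12 and 0.2 (exact permutation test), so none could pass.

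A limit on the Psmb7 ratios is that 31% of the 31-base words of Psmb7 are also in transcripts of its neighbour Nek6. Nek6 itself was between 1.21 and 13 CPM in the 23 libraries, with 5.32 to 13 CPM in OT-I cells after A8B1-OVA and 2.95 to 4.62 CPM in OT-I saline cells. Psmb5 shares 71.7% of its words with other annotated genes, so its level is uncertain where those were in the authors' index.

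**Figure D3:**
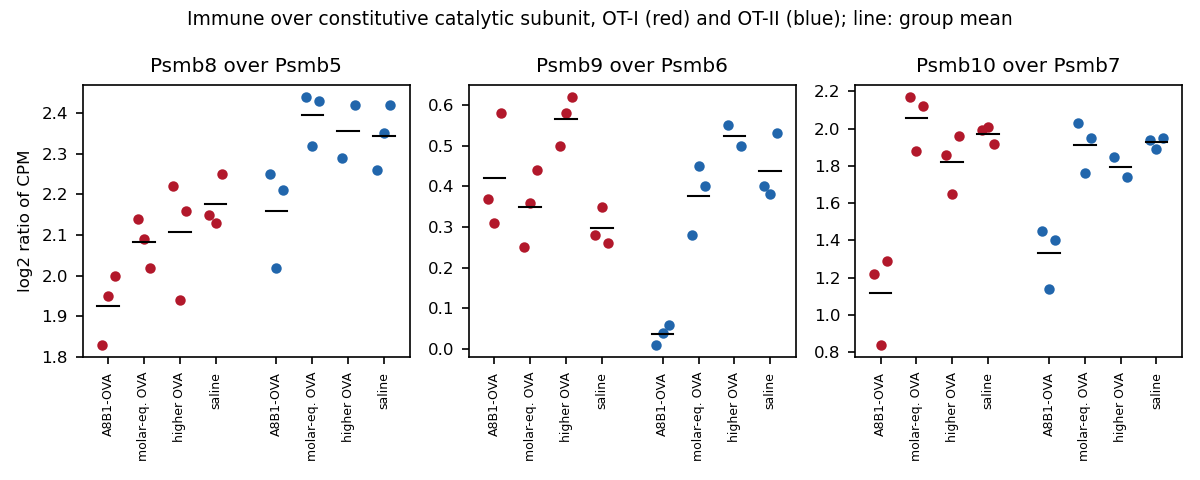
Log2 ratio of CPM (y axis) of each immune catalytic gene over the constitutive gene it replaces, per library and treatment, in OT-I (red) and OT-II cells (blue); lines are group means and the y axes differ. The Psmb10 to Psmb7 ratio after A8B1-OVA reaches at most 1.29 in OT-I and 1.45 in OT-II cells, under all other libraries of the cell type.

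Among the core subunits in OT-I cells, Psma4 (chr9:54950790-54958030, plus strand), an alpha ring subunit, had 217, 238 and 193 CPM after A8B1-OVA, against 157, 157 and 148 CPM in saline cells. All A8B1-OVA libraries were higher, and the log2 fold change was 0.48 ± 0.13 (SE; 95% interval 0.19 to 0.77; edgeR adjusted p 0.0369). Psmb7 (chr2:38588036-38644087, minus strand), the constitutive trypsin-like subunit, had 137, 146 and 83.7 CPM after A8B1-OVA, against 82.2, 76.3 and 79.1 CPM in saline cells. Replicate 3 lay just above the saline range, and the log2 fold change was 0.62 ± 0.19 (SE; 95% interval 0.21 to 1.02; edgeR adjusted p 0.0498). Of all genes tested in that comparison, 7.07% were called higher and 4.43% lower. The members called, 2 of 43 higher (4.65%) and 0 lower, were thus no more than the background. At an unadjusted p under 0.05 in edgeR there were 13 members (30.2%), all higher, where 26.3% of all genes tested were under it. Psma4 shares 35.5% of its 31-base words with other annotated genes, mainly Gm6542.

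The values of the core as a whole leaned upward in OT-I cells. All 11 non-catalytic core genes other than Psma8, which has too few counts, had a log2 fold change above 0, with a median of 0.39, where the median of all genes tested was -0.02. The constitutive catalytic genes had a median of 0.36, the 20 regulatory particle genes 0.15, the immune genes 0.10 and the activators 0.02. These are descriptions of lists with 1, 1, 0, 0 and 0 members called. Psmb5 had 283, 263 and 173 CPM after A8B1-OVA, against 202, 173 and 181 CPM in saline cells, and Psmb6 had 298, 277 and 170 CPM after A8B1-OVA, against 227, 193 and 206 CPM. In both, replicates 1 and 2 were high and replicate 3 was at or below the saline libraries.

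The same replicate stood apart across the core. The median log2 difference of 11 non-catalytic core genes from the OT-I saline mean was 0.53, 0.60 and -0.04 in the OT-I libraries after A8B1-OVA. For the regulatory particle it was 0.30, 0.21 and 0.02. Without OT-I A8B1-OVA replicate 3, 18 members (41.9%) were called, all higher, in OT-I cells, where 17.8% of all genes were called in that fit. Without any single one of the other 5 libraries of that comparison, 0 were called, where 4.68% to 7.41% of all genes were. Without the 5 raised-marker libraries 0 were called either, where 6.92% of all genes were. The edgeR adjusted p was then 0.0796 for Psma4 and 0.139 for Psmb7. The summed proliferation markers, 12 genes of which 11 were called higher, were 2750, 4030 and 2120 CPM in these libraries, against 1230, 1250 and 1160 CPM in OT-I saline cells. They were lowest in replicate 3, and their part in the core subunits' values was not tested.

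**Figure D4:**
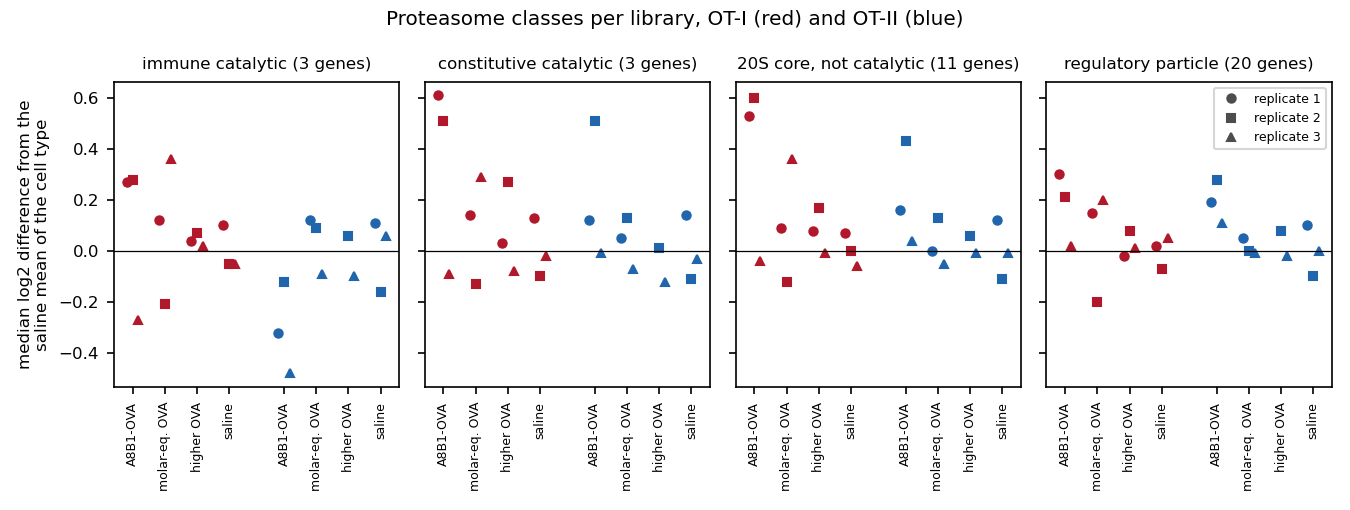
Median log2 difference from the saline mean of the same cell type (y axis) over the genes of a class, per library and treatment, with replicates as symbols, for OT-I (red) and OT-II cells (blue). The core stands at 0.53 and 0.60 in OT-I replicates 1 and 2 after A8B1-OVA and at -0.04 in replicate 3; the immune genes lie between -0.48 and -0.12 in OT-II cells after A8B1-OVA.

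Beside Psme3, the higher calls in OT-II cells were 2 genes of the regulatory particle. Psmd1, a scaffold of the base, had 180, 162 and 184 CPM after A8B1-OVA, against 133, 138 and 134 CPM in saline cells. The groups were apart, with a log2 fold change of 0.39 ± 0.08 (SE; edgeR adjusted p 0.0161). Psmd2, the scaffold that binds ubiquitin-like shuttle factors, had 416, 407 and 407 CPM after A8B1-OVA, against 346, 282 and 294 CPM in saline cells. The groups were apart again (log2 fold change 0.43 ± 0.10, edgeR adjusted p 0.0234). Psmd1 was called in 4 and Psmd2 in 2 of the 6 fits that left out 1 library. The highest edgeR adjusted p, 0.0625 for Psmd1 and 0.0976 for Psmd2, came without OT-II saline replicate 3. Psmd1 also lost its call without the 5 raised-marker libraries (edgeR adjusted p 0.0739), which include OT-II saline replicate 1, and in a fit of only the groups compared (0.0529). Psmd2 shares 44.4% of its 31-base words with other annotated genes, mainly Gm5422, and Psmd1 8.9%.

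Over the whole set in OT-II cells, 3 members were called higher and 1 lower of 42 tested, where 4.4% of all genes tested were called higher and 2.88% lower. The members' shares were 7.14% and 2.38%, a small count near that background. At an unadjusted p under 0.05 in edgeR there were 17 members higher and 2 lower (45.2% in all). Of all genes tested, 21.2% were under it. Leaving out 1 library gave 1 to 5 calls, where 3.93% to 6.92% of all genes were called. Only 1 call was left without A8B1-OVA replicate 1 or without saline replicate 3. The class medians were 0.22 for the regulatory particle, 0.23 for the non-catalytic core, 0.25 for the constitutive catalytic genes and 0.05 for the activators. The immune genes had a median of -0.29, where all genes tested had -0.01. The proliferation sum was 1400, 1500 and 1160 CPM after A8B1-OVA, against 904, 751 and 800 CPM in OT-II saline cells, and its part in these values was not tested. No member was called in the interaction contrast of the responses to A8B1-OVA, where 0.433% of all genes tested were. DESeq2 called 0 members there and 1.99% of all genes. At an unadjusted p under 0.05 in edgeR there was 1 member (2.33%), Psmb9, where 9.24% of all genes tested were under it.

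The comparison with molar-equivalent OVA sets the form of the antigen apart from its amount. In OT-II cells Psme3 was the 1 member called higher and Psmb10 the 1 called lower, as given above. Of all genes tested, 3.94% were called higher and 2.43% lower. There, 13 members were higher and 2 lower at an unadjusted p under 0.05 in edgeR (35.7% in all). Of all genes tested in OT-II cells, 20.3% were under it. In OT-I cells 0 members were called by edgeR, where 10.6% of all genes tested were called. At an unadjusted p under 0.05 there were 8 members (18.6%), all higher, where 26.9% of all genes tested were under it. DESeq2 called 4 members (9.3%), where it called 17.6% of all genes. Psmb7 came close, with a log2 fold change of 0.61 ± 0.19 (SE; edgeR adjusted p 0.0547), and Psme3 with 0.40 ± 0.12 (SE; 0.0568). The OT-I libraries with molar-equivalent OVA had 301, 264 and 246 CPM of Psme3, below all A8B1-OVA libraries. Without OT-I A8B1-OVA replicate 3, edgeR called 7 members here (16.3%), near the 15.1% of all genes called in that fit. These comparisons share the A8B1-OVA libraries with those against saline.

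Against higher-dose OVA, A8B1-OVA gave 0 called members in either cell type by edgeR, where 2.41% of all genes tested were called in OT-I and 1.34% in OT-II cells. At an unadjusted p under 0.05 there were 8 higher (18.6%) in OT-I cells, where 18.9% of all genes tested were under it. In OT-II cells there were 6 higher and 1 lower (16.7% in all), where 12.8% of all genes tested were under it. DESeq2 called 2 members in each cell type, where it called 9.87% of all genes in OT-I and 5.88% in OT-II cells. Without OT-I A8B1-OVA replicate 3, edgeR called 6 members in OT-I cells and 10.3% of all genes. The median log2 fold change of the members was 0.16 in OT-I and 0.18 in OT-II cells, where the median of all genes tested was -0.02 and 0.

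OVA alone moved no member past the test. For higher-dose OVA against saline, edgeR called 0 members, with 2.41% of all genes tested called in OT-I and 0.0271% in OT-II cells. For molar-equivalent OVA against saline, and for higher-dose against molar-equivalent OVA, it also called 0 members. The background there was 0% in both cell types for molar-equivalent OVA against saline, and 1.04% in OT-I and 0% in OT-II cells for the doses against each other. No member had an unadjusted p under 0.05 in edgeR in any of these 6 comparisons, where 1.89% to 12.3% of all genes tested did. DESeq2 called 0 members in them as well, where it called 0.00559% to 5.14% of all genes. The interaction contrasts for molar-equivalent and higher-dose OVA called 0 members, where 0% and 0.00656% of all genes tested were called. They too had 0 members at an unadjusted p under 0.05 in edgeR, where 2.76% and 5.07% of all genes tested were under it.

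OT-I cells held more of several proteasome transcripts than OT-II cells, with Psme3 called in each treatment and no member called lower in any. In saline, Psme3 had 262, 260 and 297 CPM in OT-I cells, against 191, 179 and 182 CPM in OT-II cells. The groups did not overlap, and the log2 fold change was 0.57 ± 0.10 (SE; 95% interval 0.35 to 0.79; edgeR adjusted p 0.000541). It was 0.38 with A8B1-OVA (adjusted p 0.0126), 0.46 with molar-equivalent OVA (0.00408) and 0.42 with higher-dose OVA (0.0248), each by edgeR. With 1 library left out, the call held in 6 of 6 fits in saline and with molar-equivalent OVA, in 3 of 6 with A8B1-OVA and in 1 of 5 with higher-dose OVA. Fits of only the groups compared lost the call in all treatments but saline, where the adjusted p by edgeR was 0.00192.

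Psme2 was called higher in OT-I cells in 3 of the treatments. In saline it had 610, 515 and 548 CPM in OT-I cells, against 424, 364 and 388 CPM in OT-II cells. Every OT-I library lay above every OT-II library (log2 fold change 0.51 ± 0.14, edgeR adjusted p 0.0192). That call was kept in 2 of 6 fits that left out 1 library. It was lost without the 5 raised-marker libraries (edgeR adjusted p 0.0673). The Psme2 call was kept in 4 of 6 such leave-out fits with A8B1-OVA and in 5 of 6 with molar-equivalent OVA. With A8B1-OVA it was lost in a fit of only the groups compared (edgeR adjusted p 0.0806). Psme2 shares 62.6% of its 31-base words with Psme2b, which had 38.5 to 79.2 CPM over the 23 libraries. Psmd14, the deubiquitinase of the lid, had 161, 161 and 180 CPM in OT-I saline cells, against 124, 128 and 121 CPM in OT-II saline cells. That is a log2 fold change of 0.43 ± 0.12 (SE; edgeR adjusted p 0.0145). Psmd14 kept that call in 3 of 6 fits that left out 1 library. The lid subunits Psmd6 and Psmd8 were called as well in saline, with log2 fold changes of 0.34 and 0.39. Each of these 2 was called in 0 of 6 such fits.

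Counts against their backgrounds were as follows. In saline 5 of 43 members (11.6%) were higher in OT-I cells, where 8.36% of all genes tested were higher and 7.11% lower. With higher-dose OVA the count was 1 (2.33%), beside 5.52% higher and 4.55% lower among all genes tested. With molar-equivalent OVA it was 8 (18.6%), beside 8.91% higher and 7.06% lower. With A8B1-OVA it was 13 (30.2%), beside 12.2% higher and 8.34% lower. Of these 13, 8 were genes of the alpha ring or the core's non-catalytic beta set. The members at an unadjusted p under 0.05 in edgeR were 48.8% with A8B1-OVA, where 33% of all genes tested were under it. The shares were 39.5% and 28.6% with molar-equivalent OVA, 25.6% and 23.5% with higher-dose OVA, and 25.6% and 27.3% in saline.

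The members called with A8B1-OVA differed in how far they stood apart. Psma4 had 217, 238 and 193 CPM in OT-I cells, against 157, 172 and 139 CPM in OT-II cells, without overlap (log2 fold change 0.47 ± 0.12, edgeR adjusted p 0.0076). Psmb9 had 386, 345 and 254 CPM in OT-I cells, against 226, 261 and 203 CPM in OT-II cells, and the ranges overlapped (log2 fold change 0.51 ± 0.15, edgeR adjusted p 0.017). Leaving out 1 library moved the 13 between 0, without OT-II A8B1-OVA replicate 3, and 21 (48.8%), without OT-I A8B1-OVA replicate 3. Of all genes, 13.3% and 24.4% were called in those fits. It left 3 (6.98%) without OT-I replicate 1, where 15.3% of all genes were called. It left 1 (2.33%, beside 12%) without OT-I replicate 2 and 2 (4.65%, beside 13%) without OT-II replicate 1. With molar-equivalent OVA the 8 became 1 (2.33%) without OT-I replicate 3, where 11.8% of all genes were called. They became 16 (37.2%, beside 16.8%) without OT-I replicate 2, the library with the raised myeloid markers. In saline the 5 became 1 to 3 whichever library was left out, where 11.4% to 13.6% of all genes were called. With higher-dose OVA the 1 became 0 to 2 without 1 OT-I library, beside 5.74% to 11.8% of all genes. The regulatory ATPases were not called in any treatment.

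**Figure D5:**
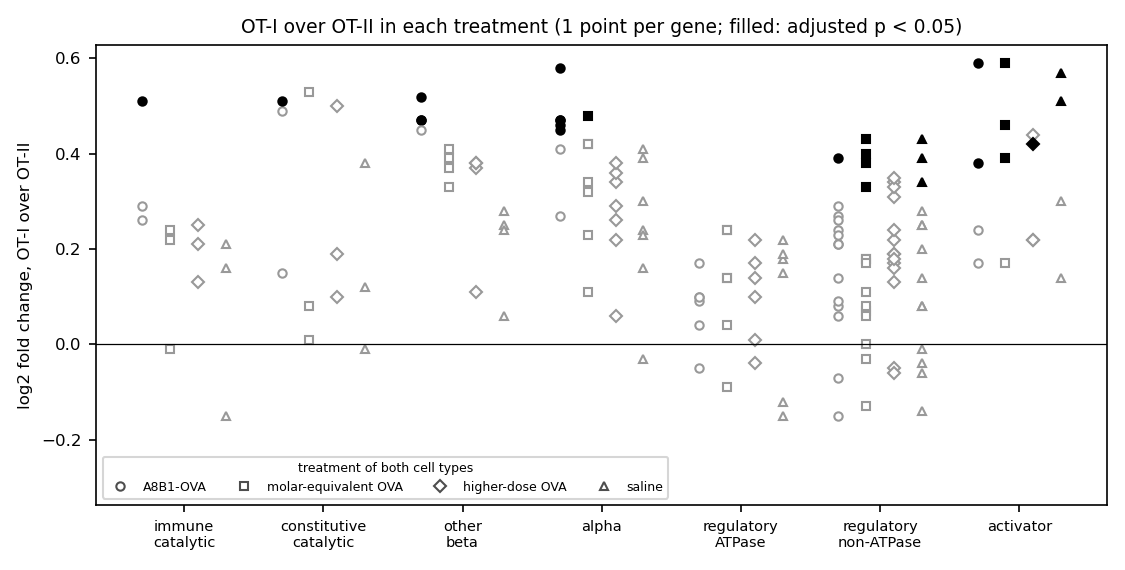
Log2 fold change of OT-I over OT-II cells (y axis) for each proteasome gene, by class (x axis) and treatment (symbol); filled points passed an adjusted p of 0.05, and Psma8 and Psmb11 are left out. Filled points all lie above 0, and with A8B1-OVA, 8 of the 13 lie in the alpha and other beta columns.

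Genes that work with the proteasome were read from lists outside the 43, for A8B1-OVA against saline. The shares of all genes tested that were called, 7.07% higher and 4.43% lower in OT-I cells and 4.4% higher and 2.88% lower in OT-II cells, are the background of each count. Of 7 tested assembly factors and inhibitors, 1 was higher in OT-I cells after A8B1-OVA, the assembly chaperone Psmg1. It averaged 58.5 ± 11.9 CPM after A8B1-OVA and 36 ± 2.01 CPM in OT-I saline cells (SD, n = 3 each; edgeR adjusted p 0.0176). Pomp, which matures the core, had a log2 fold change of 0.55 in OT-I and 0.54 in OT-II cells and did not pass (edgeR adjusted p 0.0566 and 0.0683). In OT-II cells 0 of the 7 passed.

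Of 9 genes of ubiquitin supply and unfolding, 1 was called higher and 1 lower in OT-I cells, and 1 higher in OT-II cells. The segregase Vcp was the higher one in both cell types. It averaged 711 ± 33.5 CPM after A8B1-OVA and 527 ± 25.2 CPM in saline in OT-I cells (SD, n = 3 each; edgeR adjusted p 0.0394). In OT-II cells it averaged 604 ± 31.3 CPM and 453 ± 26.5 CPM in saline (SD, n = 3 each; edgeR adjusted p 0.0154). Of the 3 genes of proteasome transcription, Nfe2l2, a stress-responsive activator, was lower after A8B1-OVA in OT-I cells by -0.72 (edgeR adjusted p 0.00412) and in OT-II cells by -0.66 (0.0014). Of 11 genes listed as other subunits, shuttles and deubiquitinases, 0 passed in OT-I cells. Ubqln4, a shuttle factor, was higher in OT-II cells (log2 fold change 0.48, edgeR adjusted p 0.0161).

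Of 15 genes of antigen processing and its regulators, 1 was lower in OT-I cells (4.43% of all genes tested were), and 3 were lower and 1 higher in OT-II cells (2.88% and 4.4% of all genes tested). Irf1, an interferon-induced activator of immune proteasome genes, was lower in both cell types. It averaged 319 ± 57.2 CPM after A8B1-OVA and 479 ± 16.6 CPM in saline in OT-I cells (SD, n = 3 each; edgeR adjusted p 0.0234). In OT-II cells it averaged 402 ± 53.4 CPM and 614 ± 29.7 CPM in saline (SD, n = 3 each; edgeR adjusted p 0.00384). The MHC class I genes H2-K1 and B2m were lower in OT-II cells, with log2 fold changes of -0.29 and -0.35 (edgeR adjusted p 0.0175 and 0.0216). The chaperone Canx was higher there (0.44, edgeR adjusted p 0.0135). The remaining 14 in OT-I cells and 11 in OT-II cells did not pass.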

How the data were processed

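Polyadenylated RNA of sorted OT-I and OT-II cells was converted to cDNA with SmartSeq, and 3 mice were pooled per library, per the labels' protocols. Nothing says that replicates differ beyond these pools, so p-values measure the spread between pools, and same-numbered libraries were not taken as pairs. Reads were processed with bcl2fastq and kallisto 0.46.1 on GRCm38, per the submitters' processing notes. The authors deposited 1 table of estimated counts, all whole numbers, for protein-coding genes. The annotation release and the strand are not named in any source used here. Because kallisto divides reads among similar transcripts, levels of genes with near-identical copies are uncertain, and the share of 31-base words in other genes' transcripts (GENCODE M21) is given beside them.

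Library totals were 26.6 M to 73.5 M counts, so a count of 0 allows 0.0408 to 0.113 CPM (3 counts, counting error only). Libraries of a group differed by 35 to 256 times sampling noise (chi-square per degree of freedom), so none is merely another library sequenced again. Sampling noise leaves out the spread of library preparation, so these values cannot tell whether libraries came from the same pool of RNA. Each cell type was fitted alone with the quasi-likelihood test of edgeR 4.0.16 (R 4.3.3), after TMM scaling and filterByExpr (counts of at least 10, totals of at least 15). OT-I against OT-II and the differences between responses came from 1 fit of all 23 libraries. This gave 19 comparisons, over 14080, 14757 and 15235 genes. All 43 members were tested in OT-I cells and in the joint fit, and 42 in OT-II cells, where Psma8 was filtered out. CPM of members and of the related lists, with the proliferation sums, are TMM-scaled in the joint fit. The sums of cell type markers and the levels of Nek6 and Psme2b use plain totals. Calls are Benjamini-Hochberg adjusted p under 0.05 over all genes tested; intervals are 95%. The procedure was tested on simulated data.

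The members, lists and named genes were chosen with earlier results of these data known. Named were up to 10 called members with the lowest adjusted p against saline and up to 6 in other comparisons, a panel of catalytic subunits and activators, and up to 3 genes of each related list. Paaf1 was not analysed here, and 1 gene of the related lists is not reported here. Where the text gives a count from DESeq2, an adjusted p of NA was left as NA. Alternatives were RLE factors, DESeq2 1.42.0, no filter, a replicate block, leaving out each library, leaving out 5 libraries with raised markers of other cells, and fitting only the groups compared.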

Additional observations from a re-analysis of the deposited data

Results flagged for a closer look

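For the log2 ratio of Psmb9 to Psmb6, a test of the difference between the responses of the cell types passed its threshold. A8B1-OVA minus saline was 0.12 in OT-I cells and -0.40 in OT-II cells, and the OT-I response minus the OT-II response was 0.52. Permuting the treatment labels within each cell type gave an exact two-sided p of 0.01 over 400 arrangements, or 0.03 adjusted over the 3 pairs, where 0.005 is the smallest p possible. The permutation assumes no response in either cell type, so it does not by itself show that the responses differ, and the test was chosen after the data were seen. For Psmb9 alone, the interaction contrast gave 0.66 and an edgeR adjusted p of 0.22. The same difference was -0.06 for Psmb8 to Psmb5 and -0.26 for Psmb10 to Psmb7 (exact permutation p 0.73 and 0.605).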

How the results depend on the processing

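Scaling moved the all-gene median by at most 0.02 on the log2 scale, and no named member reversed. Of the named members' values under alternatives, 2411 kept their side of the threshold, 129 lost a call and 26 gained one. The 2411 include values not called in the main fit, so they do not give the share of calls kept. With 1 library left out, Psme3 in OT-II A8B1-OVA against saline was called in 6 of 6 fits. Psmd6 and Psmd8, for OT-I against OT-II in saline, were each called in 0 of 6. In OT-I A8B1-OVA against saline, the 2 calls became 1 without a filter, where 8.3% of all genes were called. They became 0 with the replicate block (10.5% of all genes) and 0 without the 5 raised-marker libraries (6.92%). With only the groups compared 1 was called (12.1% of all genes), and with DESeq2 7 (16.3% of members, 17.9% of all genes). Leaving out 1 library gave 0 to 18 calls, where 4.68% to 17.8% of all genes were called. In the other comparisons of A8B1-OVA, DESeq2 counts are given with the shares of members and of all genes called. For OT-I cells it called 4 against molar-equivalent OVA (9.3% and 17.6%) and 2 against higher-dose OVA (4.65% and 9.87%). For OT-II cells it called 8 against saline (18.6% and 14.1%) and 8 against molar-equivalent OVA (18.6% and 14%). Against higher-dose OVA it called 2 in OT-II cells (4.65% and 5.88%). Leaving out 1 library gave, by edgeR, 0 to 7, 0 to 6, 1 to 5 and 1 to 2 for the first 4 of these. All genes called were then 3.99% to 15.1%, 0.264% to 10.3%, 3.93% to 6.92% and 3% to 6.62%. In OT-II A8B1-OVA against saline, 2 (4.76%) remained in number without the raised-marker libraries, where 4.99% of all genes were called. With only the groups compared it was 2 (4.76%, beside 5.27% of all genes). Against molar-equivalent OVA it was 1 with only the groups compared (2.38%, beside 5.63%). For OT-I against OT-II with A8B1-OVA the 13 became 8 (18.6%) without the raised-marker libraries, where 19.9% of all genes were called. They became 0 with only the groups compared (14.2% of all genes) and 0 to 21 with 1 library left out (12% to 24.4%). With molar-equivalent OVA the 8 became 5 (11.6%) without a filter, where 12.3% of all genes were called. They became 4 (9.3%) without the raised-marker libraries, beside 12.4% of all genes. With only the groups compared 1 was left (2.38%, beside 11.7%), and with 1 library left out 1 to 16 (11.2% to 16.8% of all genes). With higher-dose OVA the 1 became 2 (4.65%) with RLE factors, where 10.1% of all genes were called. It became 3 (6.98%, beside 12%) without the raised-marker libraries and 5 (11.6%, beside 16.9%) with DESeq2. Leaving out 1 OT-I library of that treatment gave 0 to 2, where 5.74% to 11.8% of all genes were called. In saline the 5 became 3 (6.98%) without the raised-marker libraries, where 10.6% of all genes were called. They became 10 (23.8%, beside 20.4%) with only the groups compared, and 1 to 3 with 1 library left out (11.4% to 13.6% of all genes). The difference between the responses to A8B1-OVA gave 0 to 1 with 1 library left out, where 0.197% to 0.729% of all genes were called. Fits without a library that leave 2 in a group take its spread from all groups. The cause of these changes was not tested.

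Whether same-numbered libraries share mice is not stated, and weak correlations cannot exclude it. In OT-I cells, deviations of same-numbered libraries correlated between -0.54 and 0.48 (median 0.05), and of other pairs between -0.53 and 0.53 (median -0.06). In OT-II cells the medians were 0.01 and 0.03. Between OT-I and OT-II, same-numbered libraries correlated between -0.51 and 0.66 (median 0.02), and other pairs between -0.74 and 0.58 (median -0.01). The main comparisons of OT-I with OT-II treated all libraries as independent. With the replicate block, Psmb10 in OT-II A8B1-OVA against saline had an edgeR adjusted p of 0.0539. That fit called 3 members there (7.14%), where 5.91% of all genes were called. The pair ratios kept their sign when 1 library was left out, Psmb10 to Psmb7 between -0.94 and -0.72 in OT-I and between -0.65 and -0.50 in OT-II cells. That alternative was chosen after seeing the data. Depth limits Psma8, which had too few counts for a fold change.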
